A study of Mus musculus with 2 samples.

Results

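Tumor-associated macrophages without Clec4f were examined in the CCA livers of shYT mice treated with PBS or with an antibody to PD-1. CCA is cholangiocarcinoma, a tumor of bile duct-like cells. Members were chosen by measured UMI counts, as cells with at least 3 UMIs summed over *C1qa* and *C1qb*, UMIs of at least 3 of 6 markers (*Ms4a7*, *Trem2*, *Cx3cr1*, *C3ar1*, *Gpnmb* and *Fcrls*), no *Clec4f* UMI and no UMI of the lymphocyte genes *Cd3e* and *Cd79a*. A UMI is a molecular tag that counts each captured transcript once. The gate took 2645 of the 31891 cells that passed the cell filters, 2249 of them from the PBS library and 396 from the anti-PD-1 library.

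All animals carried tumors made by hydrodynamic tail vein injection of plasmids for the Notch intracellular domain and for a membrane-bound, active AKT, which enter hepatocytes. They also carried doxycycline-inducible shRNAs against YAP and TAZ (genes *Yap1* and *Wwtr1*) under a transactivator with a ubiquitous CAG promoter. The hairpins could thus be induced in macrophages as well as in tumor cells. Doxycycline was given from day 25 and livers were taken on day 33. The controls received PBS and the treated animals received anti-PD-1 (clone RMP1-14) on days 26, 29 and 32. Since both libraries came from shYT animals, the knockdown itself was not compared, and the labels give neither the animals' age nor the hairpin line. There was 1 library per group. No test between groups was therefore possible, the spread among animals is unknown, and all intervals are 95% intervals of counting error only.

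Several kinds of macrophage share the mouse liver. Kupffer cells live in the sinusoids, maintain themselves and carry the lectin CLEC4F. Others arise from monocytes that enter the tissue in injury or cancer, and many of these make TREM2, GPNMB or CX3CR1 and lack CLEC4F. Macrophages respond to interferon-gamma, which T cells release, and then present more antigen and secrete chemokines that draw T cells.

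The deposited matrices held 19397 barcodes for PBS and 19451 for anti-PD-1, with a median depth of 3159 and 2990 UMIs in the cells kept. *Xist*, the RNA of the inactive X chromosome, and 4 Y-linked genes showed that the PBS library mixed sexes and the anti-PD-1 library did not. Of the PBS members, 1373 had *Xist* and no Y-linked UMI and 245 had the reverse, 97 had both and 534 neither, whereas 243 anti-PD-1 members had a Y-linked UMI and 0 had *Xist*. At least 1 male and 1 female were thus pooled in the PBS library, and the sex of the animals could not be told apart from treatment except within cells with Y-linked UMIs. The libraries shared 219 barcodes, which 26 PBS and 2 anti-PD-1 members carried. *Yap1* had 17 and 4 UMIs in the members and *Wwtr1* had 26 and 1, too few to read the knockdown in these cells.

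Members were a smaller part of the anti-PD-1 library. They made up 14.5% (13.9 to 15.0) of the PBS cells and 2.42% (2.19 to 2.67) of the anti-PD-1 cells. Among all C1q-high cells, that is those with at least 3 UMIs of *C1qa* and *C1qb* and neither lymphocyte gene, they were 45.9% (44.5 to 47.3) of 4902 and 9.11% (8.27 to 10.01) of 4346. Cells with a *Clec4f* UMI, called the Kupffer gate here, were 30.7% and 59.4% of the C1q-high cells. The remaining 23.4% and 31.5% had no *Clec4f* and fewer than 3 markers. These proportions say nothing of cell numbers per liver, and neutrophils were 6.87% of the PBS and 15.2% of the anti-PD-1 cells.

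The absence of *Clec4f* was itself harder to meet in the anti-PD-1 library. T cells do not make *Clec4f*, yet 8.45% (7.35 to 9.66) of T cells held a *Clec4f* UMI in the PBS library and 29.4% (27.5 to 31.4) did in the anti-PD-1 library, at median depths of 2916 and 3695 UMIs. With every cell thinned to 1000 UMIs these shares were 3.35% and 9.37%. Among C1q-high cells with at least 3 markers, 1 or 2 *Clec4f* UMIs were found in 13.8% of PBS and 32.5% of anti-PD-1 cells. Their *Vsig4* level, a Kupffer cell gene, was 121 and 81.0 CPM (UMIs scaled to a common library total), which was closer to the 57.4 and 44.5 CPM of the members than to the 3506 and 2587 CPM of cells with 10 or more *Clec4f* UMIs. When up to 2 *Clec4f* UMIs were allowed, members numbered 2668 and 739, or 17.2% and 4.52% of the kept cells and 54.4% and 17.0% of the C1q-high cells. The share was lower in the anti-PD-1 library under either rule.

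**Figure D1:**
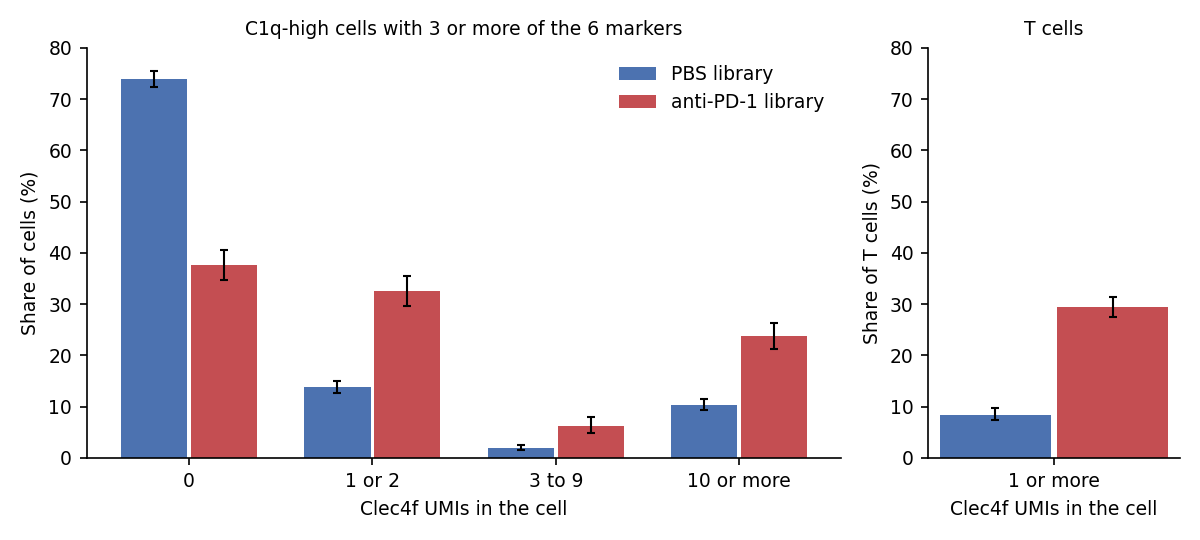
The left panel shows the share of C1q-high cells with 3 or more of the 6 markers that held 0, 1 or 2, 3 to 9, or 10 or more Clec4f UMIs, and the right panel the share of T cells with any Clec4f UMI, for each library with 95% Clopper-Pearson intervals as error bars. Cells with 0 Clec4f UMIs were 73.9% of the PBS and 37.5% of the anti-PD-1 cells, while T cells with a Clec4f UMI were 8.45% and 29.4%.

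The number of markers also separated the libraries. Of the C1q-high cells without *Clec4f*, 13.9% in the PBS and 52.1% in the anti-PD-1 library held 0 of the 6 markers. Those C1q-high cells outside both gates were shallower, with a median of 3681 and 2662 UMIs against 8244 and 8659.5 in the members. They carried a summed 2273 and 14142 CPM of 8 neutrophil genes against 550 and 1085 CPM in the members. Among members, 17.8% and 30.6% held exactly 3 markers and 15.0% and 8.08% held all 6. Cells just inside the limit, with 3 markers, had 475 and 646 CPM of *Ms4a7* and 29613 and 25937 CPM of *Apoe*. Cells just outside it, with 2 markers, had 196 and 185 CPM of *Ms4a7* and 14745 and 12848 CPM of *Apoe*.

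The 6 markers chose the cells, so their levels are a description only. *Clec4f* lies at chr6:83644542-83656187 of GRCm38 (mm10) on the reverse strand. *Ms4a7*, a membrane protein of monocyte-derived macrophages (chr19:11321039-11336146), had 1089 CPM in PBS and 1105 CPM in anti-PD-1 members. *Trem2*, a lipid-sensing receptor (chr17:48346401-48354147), had 829 and 491 CPM. *Cx3cr1*, the fractalkine receptor (chr9:119901616-120069879), had 563 and 346 CPM. *C3ar1*, the receptor of complement C3a (chr6:122847138-122856161), had 535 and 438 CPM. *Gpnmb*, a glycoprotein of lipid-loaded macrophages (chr6:49036546-49070929), had 353 and 129 CPM, and *Fcrls*, an Fc receptor-like scavenger protein known from microglia (chr3:87250758-87263738), had 244 and 229 CPM. Thus *Ms4a7* and *Fcrls* were near level between the libraries, whereas *Gpnmb* differed by -1.42 (-1.55 to -1.29) on the log2 scale of CPM + 5, used for every ratio below. *Gpnmb* was at -0.94 with up to 2 *Clec4f* UMIs and at -0.99 after thinning to 1000 UMIs, both under 2-fold. *Clec4f* is at 0 by the gate.

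**Figure D2:**
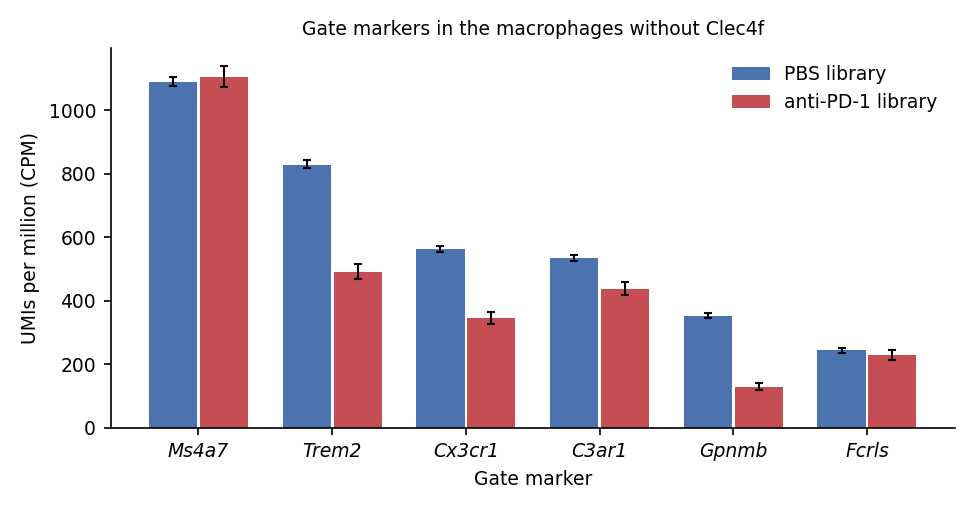
The 6 gate markers are shown in CPM over all members of the PBS library (2249 cells) and of the anti-PD-1 library (396 cells), with 95% Poisson intervals as error bars. Ms4a7 stood at 1089 and 1105 CPM and Gpnmb at 353 and 129 CPM.

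With cells thinned to 1000 UMIs, the share with a UMI was 55.6% and 58.2% for *Ms4a7*, 53.6% and 33.2% for *Trem2*, 41.1% and 26.8% for *Cx3cr1*, and 14.2% and 6.08% for *Gpnmb*. Without thinning these shares were 89.6% and 91.7%, 95.2% and 88.4%, 89.2% and 81.6%, and 33.9% and 19.9%. In thinned T cells each of the 4 genes was found in at most 2.05% of cells. The lower *Trem2*, *Cx3cr1* and *Gpnmb* levels thus went with fewer cells holding a UMI.

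Macrophage genes outside the rule were high in members of both libraries. Of 12 pan-macrophage genes all were measured, which means a mean of at least 10 CPM over both libraries. They summed to 85186 CPM in PBS and 66678 CPM in anti-PD-1 members. *Csf1r*, the receptor of the growth factor CSF-1, had 1182 and 961 CPM, and *Adgre1*, which encodes F4/80, had 451 and 472 CPM. T cells held at most 37.4 CPM of either. Leaving out members with UMIs of 2 markers of another lineage left 763 of 2249 PBS and 33 of 396 anti-PD-1 members. The summed lists of other cell types were nonetheless low beside the pan-macrophage list. The highest was that of 8 neutrophil genes, with 550 and 1085 CPM. The 8 T and NK cell genes summed to 62.0 and 101 CPM, the 8 dendritic cell genes to 21.7 and 30.9, the 8 endothelial genes to 79.6 and 51.5, the 8 fibroblast genes to 147 and 54.8, the 8 tumor and biliary genes to 198 and 120, the 8 hepatocyte genes to 96.3 and 132, and the 8 B and plasma cell genes to 283 and 384.

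Against Kupffer cells the members differed widely in both libraries. The Kupffer gate as first set, with any *Clec4f* UMI, was compared first, and 35 genes (0.441% of 7944) were at least 2-fold higher and 218 (2.74%) at least 2-fold lower in members of both libraries. Because free *Clec4f* RNA could enter that gate, cells with 10 or more *Clec4f* UMIs (713 and 1022 cells) were used as a stricter Kupffer reference, chosen after the data were seen. Against it, 270 genes (3.47% of 7791) were at least 2-fold higher and 369 (4.74%) at least 2-fold lower in members of both libraries. The median over all genes was -0.05 and -0.08. All 10 Kupffer identity genes were lower in members of both libraries, with a median of -5.17 for PBS and -4.81 for anti-PD-1, and of all genes 5.47% and 5.87% were at least 2-fold lower in the single libraries. *Timd4*, a phagocytic receptor, had 2.23 and 15.5 CPM in members and 494 and 555 CPM in the reference. *Cd5l*, a secreted scavenger protein, had 52.4 and 115 CPM against 6549 and 5741 CPM. *Vsig4*, a complement receptor, had 57.4 and 44.5 CPM against 3601 and 2373 CPM. T cells held 27.0 and 86.1 CPM of *Cd5l* and 17.9 and 42.3 CPM of *Vsig4*, so the members' levels of *Cd5l* lay nearer to those of T cells than to those of the reference.

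Genes higher in members than in the reference included several known from recruited macrophages and microglia. *Tmem119*, a microglial membrane protein, had 208 and 155 CPM in members against 8.46 and 2.42 CPM, ratios of 3.98 and 4.43. *Ccr2*, the receptor through which monocytes leave the marrow, had 219 and 106 CPM against 12.6 and 3.91. *Fcgr2b*, the inhibitory Fc receptor, had 405 and 434 CPM against 28.5 and 8.55. *Lgals1* (galectin-1) had 665 and 457 CPM against 51.9 and 29.8, and *Cd63*, a tetraspanin of late endosomes, had 1405 and 898 CPM against 127 and 59.0. *Arg1* (arginase-1) had 129 and 184 CPM against 5.02 and 12.4, and *F13a1*, coagulation factor XIII A, 212 and 87.1 CPM against 14.2 and 3.07. *Myo5a*, a motor protein, completed the 8 leading genes with ratios of 3.76 and 3.83. Lists that hold some of these genes went both ways. Of 9 monocyte genes in PBS, 5 were at least 2-fold higher and 3 lower. In anti-PD-1, 5 of 10 were higher and 2 lower. In each library 4 of 8 microglia-like genes were higher and 1 lower, and 5 of 12 lipid-associated genes were higher and 3 lower. Of all genes 4.09% and 4.72% were higher and 5.47% and 5.87% lower. Among MHC class II genes 5 of 9 measured were past 2-fold in PBS and 4 of 9 in anti-PD-1, all higher in members, beside 4.09% and 4.72% of all genes, with medians of 1.40 and 0.78. Matrix remodelling genes had medians of 1.35 and 2.30. The interferon-gamma list had medians of -0.04 and 0.01, close to that of all genes.

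Members were not uniform. A *Gpnmb* UMI without a *Cx3cr1* UMI was found in 123 PBS members (5.47%, 4.57 to 6.49) and 19 anti-PD-1 members (4.80%, 2.91 to 7.39). The converse, *Cx3cr1* without *Gpnmb*, was found in 1366 (60.7%) and 263 (66.4%). Both genes were found in 28.5% and 15.2%. In thinned PBS members *Gpnmb* and *Cx3cr1* occurred together in 5.57% of cells, and the product of their separate shares was 5.84%. Members with *Gpnmb* alone had a median of 7953 and 6717 UMIs and those with *Cx3cr1* alone 7615.5 and 8657.

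Between these subsets, 70 genes (0.959% of 7296) were at least 2-fold higher in *Gpnmb* members of both libraries and 89 (1.22%) at least 2-fold lower. Both subsets were cut from the same cells by 2 of the gate's genes, so the ratios describe them and were not tested, and the 19 anti-PD-1 cells give wide intervals. *Fabp5*, a fatty acid-binding protein, had 1246 CPM in *Gpnmb* and 87.4 CPM in *Cx3cr1* members of the PBS library, and 1170 and 70.7 CPM in the anti-PD-1 library, ratios of 3.76 (3.64 to 3.88) and 3.96 (3.66 to 4.25). *Hmox1*, which degrades heme, had 1464 against 255 CPM and 1762 against 333 CPM. *Arg1* had 320 against 47.5 CPM and 1562 against 95.0 CPM. Over all anti-PD-1 members 5 cells held 55.8% of the *Arg1* UMIs. *F7* and *F10*, coagulation factors VII and X, had 44.7 against 1.71 and 75.4 against 6.21 CPM in PBS members. *F13a1*, *Pmp22* and *Adam8* completed the 8 genes highest in *Gpnmb* members.

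The *Cx3cr1* members led in other genes. *Tmem119* had 273 CPM in *Cx3cr1* and 33.5 CPM in *Gpnmb* members of the PBS library, and 178 and 6.43 CPM in the anti-PD-1 library, the last from 1 UMI. *Ccl12*, a ligand of CCR2, had 223 against 17.7 CPM and 1170 against 257 CPM. *Ccl8*, another monocyte-attracting chemokine, had 61.4 against 8.38 CPM and 651 against 12.9 CPM. Over all anti-PD-1 members 5 cells held 59.3% of the *Ccl8* UMIs, so the 651 CPM rest largely on a few cells. *Cd72*, an inhibitory lectin, had 387 against 68.9 CPM and 649 against 148 CPM. *Slamf9*, *Pmepa1*, *Ppfia4* and *Lpcat2* were the other 4 genes named by the same rule.

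As lists, lipid-associated macrophage genes stood with *Gpnmb* and MHC class II genes with *Cx3cr1*. Of 12 lipid-associated genes, 10 in PBS and 6 in anti-PD-1 members were at least 2-fold higher with *Gpnmb* (medians 1.62 and 1.01), beside 2.09% and 7.60% of all genes and medians of 0.01 and 0.06 over all genes. All genes lower were 2.48% and 8.94%. Of 8 microglia-like genes 5 and 6 were at least 2-fold lower (medians -1.16 and -1.52), and of 10 MHC class II genes 7 and 4 were lower (medians -1.51 and -0.72). Of 11 MHC class I genes 0 and 1 were lower (medians -0.38 and -0.17). *Cd74*, the invariant chain, had 7068 CPM in *Gpnmb* and 24337 CPM in *Cx3cr1* PBS members. Monocyte genes were higher with *Gpnmb*, 7 of 11 and 6 of 10. Kupffer identity genes were at least 2-fold higher with *Gpnmb* for 5 of 7 and 3 of 8, with 0 lower (medians 1.34 and 0.78). Polarization markers were higher for 5 of 8 and 4 of 7, with 1 lower in each library (medians 1.16 and 1.17). The interferon-gamma list did not keep its side, with 9 of 19 genes lower in *Gpnmb* members of the PBS library (median -0.98) and 0 of 19 lower in the anti-PD-1 library (median 0.27). That difference between the libraries was not tested.

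**Figure D3:**
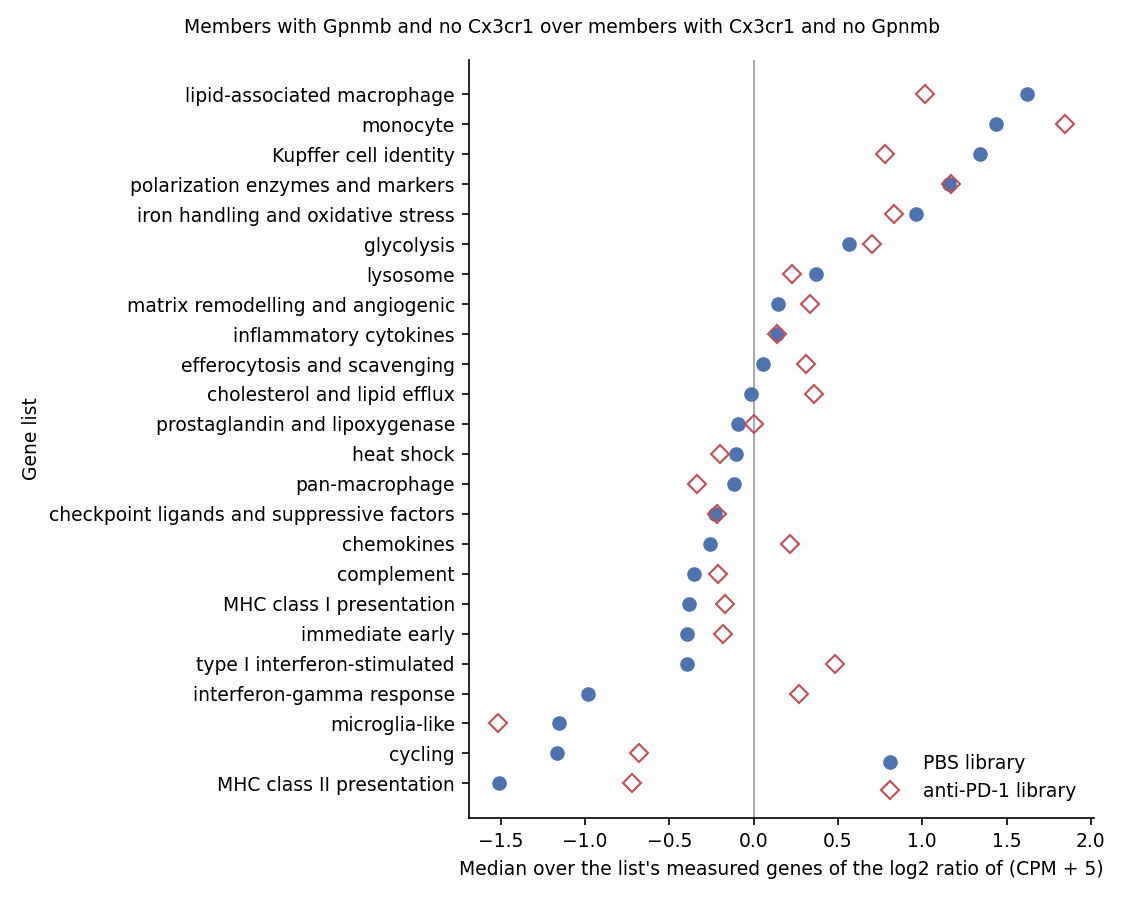
Each row is a gene list, and the x axis gives the median over its measured genes of the log2 ratio of CPM + 5 between members with Gpnmb and no Cx3cr1 and members with Cx3cr1 and no Gpnmb, for the PBS (filled circles) and anti-PD-1 (open diamonds) libraries. The lipid-associated list lies at 1.62 and 1.01, the MHC class II list at -1.51 and -0.72, and the interferon-gamma list on either side of 0.

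Between treatments, 298 of the 8104 genes measured in members (3.68%) were at least 2-fold higher with anti-PD-1 and 58 (0.716%) at least 2-fold lower. The median ratio over all measured genes was -0.16. With the scale set so that this median was near 0, 363 genes were higher and 36 lower.

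The interferon-gamma response list was higher with anti-PD-1. Of its 21 genes 19 were measured, all 19 had a ratio above 0, and 16 were at least 2-fold higher, beside 3.68% of all genes. The list's median was 1.42. *Irf1*, a transcription factor induced by interferon-gamma, had 78.3 CPM in PBS and 274 CPM in anti-PD-1 members. Guanylate-binding proteins, GTPases that attack vacuoles of microbes, followed. *Gbp2* had 52.5 and 324 CPM, a ratio of 2.52 (2.40 to 2.63), *Gbp5* 18.6 and 91.4 CPM (2.03, 1.84 to 2.22) and *Gbp4* 21.4 and 103 CPM (2.03, 1.85 to 2.21). *Gbp3* (1.32) and *Gbp7* (1.23) were also past 2-fold, though *Gbp7* was at 0.94 after thinning to 1000 UMIs and at 0.96 without members holding markers of another lineage. How reads shared by these close paralogs were counted is not stated, so the split among them is uncertain. *Igtp* (46.0 and 192 CPM) and *Irgm1* (77.7 and 263 CPM), GTPases of the same defense, had ratios of 1.95 and 1.70. T cells make these genes too. They held 134 and 227 CPM of *Irf1*, 148 and 232 CPM of *Igtp*, 57.8 and 113 CPM of *Gbp2* and 124 and 151 CPM of *Gbp4*, so the PBS members lay below T cells in all 4 and the anti-PD-1 members above them in *Irf1* and *Gbp2* alone.

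The T cell chemokines of this list, which bind CXCR3, were also higher. *Cxcl10* had 76.1 CPM in PBS and 378 CPM in anti-PD-1 members, a ratio of 2.24 (2.14 to 2.34), and *Cxcl9* had 160 and 366 CPM, a ratio of 1.17 (1.08 to 1.26). The *Cxcl9* ratio was 0.98 without the 5 richest cells of each library and -0.57 without members holding markers of another lineage, which left 33 anti-PD-1 cells. In cells thinned to 1000 UMIs, *Cxcl9* was found in 4.81% (3.97 to 5.78) and 12.7% (9.54 to 16.3) of members and in 0.479% and 1.72% of T cells. *Cxcl10* was found in 3.34% and 17.0% of members and in 1.00% and 4.24% of T cells. Without thinning, *Cxcl9* was found in 10.8% and 29.3% and *Cxcl10* in 10.8% and 43.4% of members. *Ciita*, the switch of MHC class II transcription, was level at 58.7 and 59.7 CPM, and *Irf8*, a myeloid transcription factor, had 252 and 328 CPM. *Nos2* (10 and 6 UMIs) and *Ido1* (0 and 0 UMIs), enzymes induced by interferon-gamma in other settings, fell under the limit for measurement. A count of 0 allows up to 3 UMIs.

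Start-site windows of 3 genes are shown because genes of the list were higher together. Windows of 300 bases (250 before and 50 after the start) came from RefSeq on GRCm38.p6. The 5 highest ratios of the list were those of *Iigp1*, *Gbp2*, *Cxcl10*, *Gbp5* and *Gbp4*, and *Iigp1* and *Gbp4* are named only. The *Iigp1* ratio of 2.64 was 0.97 without members holding markers of another lineage. Capitals mark matches, on either strand, to TTCNNNGAA (the form of the gamma-activated site), GAAANNGAA (the core of the interferon-stimulated response element) and TGANTCA (the form bound by AP-1). No 2 matches overlap in these windows. The *Gbp2* window is chr3:142620413-142620712 on the forward strand, the *Cxcl10* window chr5:92348840-92349139 on the reverse strand, and the *Gbp5* window chr3:142496684-142496983 on the forward strand.
Gbp2: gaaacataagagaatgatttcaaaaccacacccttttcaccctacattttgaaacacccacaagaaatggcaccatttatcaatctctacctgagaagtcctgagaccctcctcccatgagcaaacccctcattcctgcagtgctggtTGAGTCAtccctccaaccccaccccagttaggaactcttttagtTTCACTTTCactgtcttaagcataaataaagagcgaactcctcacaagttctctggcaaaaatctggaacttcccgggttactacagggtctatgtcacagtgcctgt
Cxcl10: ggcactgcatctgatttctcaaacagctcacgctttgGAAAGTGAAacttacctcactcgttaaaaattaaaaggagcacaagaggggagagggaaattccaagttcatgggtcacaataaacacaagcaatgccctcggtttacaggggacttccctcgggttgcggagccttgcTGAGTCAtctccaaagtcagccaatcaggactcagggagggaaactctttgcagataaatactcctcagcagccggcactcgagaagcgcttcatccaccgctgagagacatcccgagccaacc
Gbp5: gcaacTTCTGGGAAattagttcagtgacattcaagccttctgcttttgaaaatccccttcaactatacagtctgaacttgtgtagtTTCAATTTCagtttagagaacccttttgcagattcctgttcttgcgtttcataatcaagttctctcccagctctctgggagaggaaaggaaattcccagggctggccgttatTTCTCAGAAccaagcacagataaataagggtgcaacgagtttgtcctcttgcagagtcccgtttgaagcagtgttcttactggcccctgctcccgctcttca

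In *Gbp2* the GAAANNGAA match began 58 bases before the start and the TGANTCA match 102 bases before it. In *Cxcl10* they began 213 and 74 bases before it. *Gbp5* held TTCNNNGAA matches at 245 and 52 bases and a GAAANNGAA match at 164 bases before the start. Of the 21 listed genes 15 had windows, 18 in all because some genes have several starts, and *Gbp2*, *Gbp3*, *Gbp5* and *Gbp7* are neighbours that arose by duplication. A TTCNNNGAA match was found in 6 of these 18 windows (33.3%) and in 8.30% of all 32851 windows. GAAANNGAA was found in 10 (55.6%) and in 8.56% of all, and TGANTCA in 4 (22.2%) and in 7.81% of all. A match is a description of letters and says nothing of binding in these cells.

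Type I interferon-stimulated genes were higher as well. All 13 measured genes were at least 2-fold higher, beside 3.68% of all genes, with a median of 1.82. *Irf7*, a transcription factor that amplifies the interferon response, had 58.8 and 356 CPM (2.50, 2.39 to 2.61). *Isg15*, a ubiquitin-like protein, had 52.2 and 322 CPM (2.51, 2.40 to 2.63), and *Ifit3*, which restrains viral RNA, 27.4 and 174 CPM (2.46, 2.31 to 2.61). The smallest ratio was that of *Bst2* (tetherin), with 470 and 1045 CPM (1.14). In cells with Y-linked UMIs it was at 0.86, and 12 of 13 passed. In the stricter Kupffer reference 6 of 13 passed 2-fold (median 0.93) beside 2.10% of all genes there, and in T cells 3 of 12 (median 0.69) beside 1.89%. Medians were 1.23 in B cells, 1.51 in neutrophils, 1.55 in other C1q-high cells, 1.70 in monocytes, 1.75 in tumor and biliary cells, 1.80 in fibroblasts and 2.18 in endothelial cells.

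These lists were not particular to the members. The interferon-gamma list had a median of 1.48 in the stricter Kupffer reference, 1.45 in monocytes, 1.46 in neutrophils, 1.59 in tumor and biliary cells, 2.38 in the 66 endothelial cells of the anti-PD-1 library against 433 of the PBS library, and 0.43 in T cells. All are ratios of the same 2 libraries, and differences among cell types were not tested.

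Antigen presentation genes were higher by less. Of 11 MHC class I genes 3 passed 2-fold, beside 3.68% of all genes, and the median was 0.80. Of these 3, *Tap1* and *Psmb9* are also in the interferon-gamma list. *Tap1*, a peptide transporter, had 88.5 and 245 CPM (1.42), *Nlrc5*, the switch of class I transcription, 35.4 and 84.1 CPM (1.14), and *Psmb9*, a proteasome subunit, 132 and 294 CPM (1.13). *H2-K1*, a class I heavy chain, had 1740 and 3054 CPM (0.81), and *B2m*, its partner chain, 4727 and 6610 CPM (0.48). None of 10 MHC class II genes passed 2-fold in either direction, and the median was 0.39. *H2-Aa* had 5147 and 6873 CPM and *Cd74* 17916 and 27875 CPM (0.64). The share of thinned members with an *H2-Aa* UMI was 69.2% (67.3 to 71.1) and 85.3% (81.4 to 88.7), against 14.4% and 24.4% of T cells. Unthinned it was 88.0% and 95.5%. In the stricter Kupffer reference 5 of 9 class II genes passed 2-fold with a median of 1.11, beside 2.10% of all genes. Without members holding markers of another lineage, which left 33 anti-PD-1 cells, *Nlrc5* was at 0.14 and *Psmb9* at 0.80, both under 2-fold.

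Ligands of T cell checkpoints and suppressive factors were mixed. Of 10 measured, 4 were at least 2-fold higher and 0 lower, beside 3.68% and 0.716% of all genes, with a median of 0.47. *Cd274*, which encodes PD-L1, had 24.8 and 106 CPM (1.89, 1.72 to 2.07). T cells held 25.6 and 65.6 CPM of *Cd274*, and in thinned cells its shares of 1.96% and 6.84% of members were close to 2.22% and 5.73% of T cells, so no expression was read from those shares. Without members holding markers of another lineage the ratio of *Cd274* was 0.82. *Il10*, an anti-inflammatory cytokine, had 10.1 and 97.1 CPM (2.75, 2.55 to 2.95) against 13.5 and 52.9 CPM in T cells and 43.7 and 398 CPM in the stricter Kupffer reference. The part of free RNA in it was not tested. *Tnfsf9*, which encodes the ligand of the costimulatory receptor 4-1BB, had 25.3 and 223 CPM (2.91, 2.77 to 3.05), and *Pvr*, a ligand of TIGIT, 16.8 and 39.3 CPM (1.03, and 0.96 without the 5 richest cells of each library). *Cd80* (23.7 and 38.5 CPM), *Cd86* (125 and 136 CPM), *Lgals9* (275 and 348 CPM) and *Tgfb1* (216 and 210 CPM) stayed under 2-fold. *Vsir*, which encodes VISTA, had 260 and 186 CPM (-0.48), and *Cd276* 17.3 and 7.86 CPM (-0.79).

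Chemokine genes that attract neutrophils and monocytes were higher. Of 18 measured chemokines 11 passed 2-fold, all higher, beside 3.68% of all genes, with a median of 1.42. The 11 include *Cxcl13* and also *Cxcl9* and *Cxcl10*, which are in the interferon-gamma list as well. *Cxcl2*, a ligand of the neutrophil receptor CXCR2, had 268 and 2309 CPM (3.08, 3.03 to 3.13). It was found in 14.0% (12.5 to 15.5) and 59.5% (54.5 to 64.4) of thinned members, against 1.52% and 11.8% of T cells, and in 31.2% and 82.8% of members without thinning. *Cxcl1*, a second CXCR2 ligand, had 10.2 and 356 CPM (4.57, 4.41 to 4.72), the largest ratio named. The CCR2 ligands *Ccl2* (117 and 385 CPM, 1.68), *Ccl7* (36.2 and 279 CPM, 2.79) and *Ccl12* (160 and 930 CPM, 2.50) were past 2-fold. *Ccl4*, a chemokine that draws T cells and monocytes, had 607 and 2324 CPM (1.93), whereas its close relative *Ccl3* had 434 and 690 CPM (0.66). *Ccl6*, *Ccl9* and the platelet factor gene *Pf4* had ratios of -0.54, -0.44 and -0.79. Neutrophils were a larger share of the anti-PD-1 library, and the 8 neutrophil marker genes summed to 550 and 1085 CPM in members. *Cxcl2* had 31.6 and 188 CPM in T cells. The part of free neutrophil RNA in the members' values was not tested.

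Inflammatory cytokine genes had a median of 1.80, with 8 of 10 at least 2-fold higher and 0 lower, beside 3.68% and 0.716% of all genes. This list was not particular to the members. Its median was 1.08 in the stricter Kupffer reference (5 of 7 past 2-fold), 1.66 in other C1q-high cells (7 of 10) and 2.23 in monocytes (6 of 9). In T cells it was 0.14. *Il1b*, interleukin-1 beta, had 91.2 and 836 CPM (3.13, 3.05 to 3.21), and 21.1 and 165 CPM in T cells. It was found in 7.0% (5.98 to 8.13) and 39.5% (34.6 to 44.5) of thinned members and in 1.22% and 8.67% of T cells, and in 25.6% and 74.2% of members without thinning. *Il1b* was left out of the named genes, as its anti-PD-1 level was under 0.2 of that in another cell gate. The part of free RNA in *Il1b* was not tested. *Il1a* had 22.2 and 105 CPM (2.02), and *Il1rn*, the natural antagonist of both, 34.5 and 137 CPM (1.85). *Tnf* had 87.3 and 235 CPM (1.38) with a near level 34.2 and 26.0 CPM in T cells. *Osm*, oncostatin M, had 57.0 and 203 CPM (1.75). *Il6* rested on 13 and 89 UMIs, *Il12b* on 19 and 74, and *Il27* on 97 and 86, with ratios of 2.37, 2.08 and 1.53. Without members holding markers of another lineage *Il1a* was at 0.54 and *Il12b* at -0.055. *Il18* (35.97 and 51.8 CPM) and *Csf1* (8.11 and 15.2 CPM) stayed under 2-fold.

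Immediate early genes, which cells switch on within minutes of a stimulus, including the warming and digestion of tissue, were higher as a list. Of 14 genes 10 were at least 2-fold higher, beside 3.68% of all genes, with a median of 1.47. *Fosb* had 96.9 and 651 CPM (2.69), *Nr4a1* 101 and 670 CPM (2.67), *Atf3* 211 and 1171 CPM (2.44) and *Dusp1* 456 and 2139 CPM (2.22). *Jun* (895 and 1081 CPM, 0.27), *Ier2*, *Ier3* and *Egr2* stayed under 2-fold. *Nfkbia*, the inhibitor of NF-kB, had 450 and 1532 CPM (1.76). The heat shock genes *Hspa1a* (171 and 654 CPM, 1.91) and *Hspa1b* (81.2 and 306 CPM, 1.85), which are near-identical copies, passed 2-fold, and the other 6 of that list did not. The immediate early list had a median of 1.28 in the stricter Kupffer reference, 1.44 in tumor and biliary cells, 0.75 in T cells and -0.01 in neutrophils. The part of tissue handling in these values was not tested.

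Enzymes and matrix genes held some of the largest ratios. *Ptgs2*, cyclooxygenase-2, had 9.25 and 243 CPM (4.12, 3.96 to 4.29), and 2.64 and 20.97 CPM in T cells. Neutrophils held 151 and 451 CPM and monocytes 17.4 and 204 CPM of *Ptgs2*, and the part of their free RNA was not tested. In thinned members *Ptgs2* was found in 0.624% (0.342 to 1.05) and 14.7% (11.3 to 18.6), and in T cells in 0.0436% and 1.86%. Unthinned shares in members were 3.82% and 46.0%. *Ptgs1*, the constitutive form, had 185 and 139 CPM (-0.39), and *Ltc4s*, leukotriene C4 synthase, 59.1 and 26.8 CPM (-1.01). *Ltc4s* was at -0.21 with a gate of at least 2 markers and under 2-fold in other alternatives too. Of 12 matrix and angiogenic genes 5 passed 2-fold, all higher, beside 3.68% of all genes, with a median of 0.55. *Vegfa*, the endothelial growth factor, had 13.8 and 135 CPM (2.89, 2.71 to 3.07), *Thbs1*, thrombospondin-1, 67.3 and 326 CPM (2.19) and *Plaur*, the urokinase receptor, 112 and 420 CPM (1.86). *Mmp13* (9.70 and 27.9 CPM, 1.16) and *Serpinb2* (0.841 and 38.2 CPM, 2.89) also passed, the latter from 17 and 141 UMIs. Of their anti-PD-1 UMIs, 5 cells held 68.0% for *Mmp13* and 87.9% for *Serpinb2*, and without the 5 richest cells of each library the ratios were 0.40 and 0.90, under 2-fold. Among complement genes *C4b* (26.9 and 133 CPM, 2.12) and *Cfb* (16.3 and 69.7 CPM, 1.81) passed, while *C1qc* was level at 5278 and 5607 CPM.

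**Figure D4:**
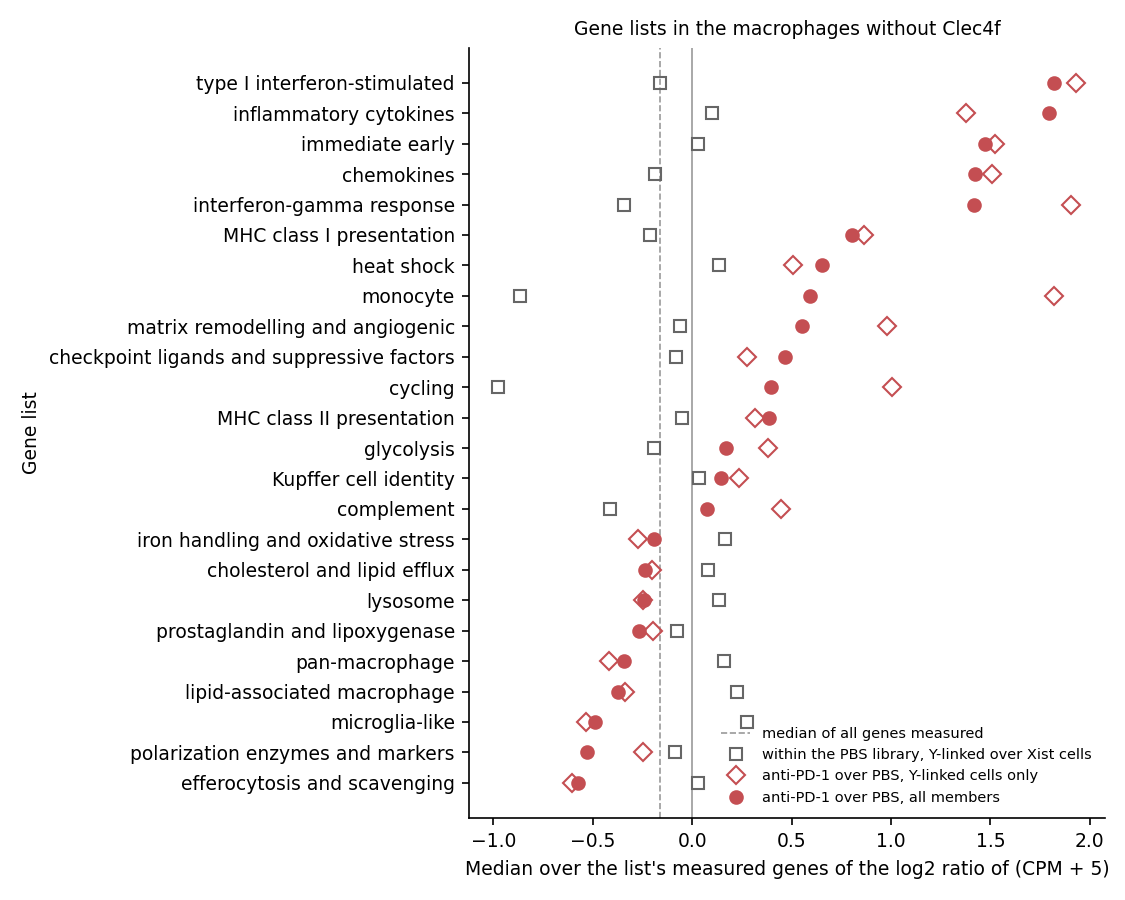
For each gene list the x axis gives the median log2 ratio of CPM + 5 over its measured genes, for anti-PD-1 over PBS in all members (filled circles), for the same in members with Y-linked and no Xist UMIs (open diamonds), and within the PBS library for members with Y-linked over members with Xist UMIs (squares). The dashed line marks the median of all genes at -0.16, and the interferon, cytokine, chemokine and immediate early lists have circles and diamonds above 1 and squares between -0.35 and 0.10.

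Fewer genes were lower than higher with anti-PD-1 (58 against 298). Without members holding markers of another lineage, which left 763 of 2249 PBS and 33 of 396 anti-PD-1 members, 937 were lower and 500 higher. The 12 lowest named by rule were *Cbr2*, *Neat1*, *Gdf3*, *Cmss1*, *Ms4a4a*, *Gpnmb*, *AC149090.1*, *F13a1*, *Gpr34*, *Idh1*, *Lyz1* and *Abca9*. *Gpnmb* is a gate marker, so its place is a description only. *Cbr2*, a carbonyl reductase, had 49.3 and 9.76 CPM (-1.88, -2.21 to -1.54). *Gdf3*, a ligand of the TGF-beta family, had 133 and 37.7 CPM (-1.69), and *Ms4a4a*, a relative of *Ms4a7*, 51.4 and 15.7 CPM (-1.44). *Gpr34*, a lysophospholipid receptor of microglia, had 77.8 and 30.6 CPM (-1.22), and *Idh1*, cytosolic isocitrate dehydrogenase, 90.2 and 36.3 CPM (-1.20). *F13a1* had 212 and 87.1 CPM (-1.24). After thinning to 1000 UMIs *Cbr2* was at -0.63 and *F13a1* at -0.64, in cells with Y-linked UMIs *Gdf3* was at -0.59, and with at least 2 markers *Idh1* was at -0.87. Some of these were also lower in T cells of the anti-PD-1 library. *Cmss1* had 828 and 297 CPM in members (-1.46) and 2102 and 608 CPM in T cells. *Neat1*, a nuclear long RNA, had 135 and 35.3 CPM in members (-1.80) and 85.2 and 57.9 CPM in T cells, and *AC149090.1* had 175 and 64.3 CPM in members (-1.38) and 165 and 98.9 CPM in T cells. The part of free RNA in these values was not tested.

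Lists of tissue macrophage programs had medians on both sides of that of all genes (-0.16). The lipid-associated list had a median of -0.37, with 0 of 12 past 2-fold. *Fabp5* had 354 and 180 CPM (-0.96), *Lpl*, lipoprotein lipase, 299 and 161 CPM (-0.87), *Cd63* 1405 and 898 CPM (-0.64) and *Spp1*, osteopontin, 1705 and 1191 CPM (-0.52), while *Cd9* (393 and 383 CPM) and *Plin2* (505 and 508 CPM) were level. *Spp1* stood at 1546 and 716 CPM in T cells. Its thinned shares of 55.7% and 41.3% of members lay near 60.5% and 37.6% of T cells. No expression was read from those shares, though single members held up to 684 and 392 *Spp1* UMIs. The part of free RNA in *Spp1* was not tested. Of 8 microglia-like genes 2 were at least 2-fold lower, *Gpr34* and *Sparc* (86.9 and 30.9 CPM, -1.36), beside 0.716% of all genes. The list's median was -0.49. *Sparc* was at 0.30 with a gate of at least 2 markers and at -0.23 without members holding markers of another lineage. *Sparc*, a matrix protein, had 259 and 35.7 CPM in T cells. *Tmem119* (208 and 155 CPM, -0.41) and *P2ry12*, a purine receptor (95.2 and 62.6 CPM, -0.57), stayed under 2-fold. Efferocytosis genes had a median of -0.58 with 1 of 10 past 2-fold, *Gas6* (87.4 and 25.2 CPM, -1.61), a bridge to dying cells that was also lower in T cells at 54.3 and 11.0 CPM. Its receptors *Axl* (425 and 428 CPM) and *Mertk* (183 and 125 CPM, -0.53) stayed under 2-fold. Medians were -0.53 for polarization markers, -0.24 for lysosomal genes, -0.19 for iron handling, -0.24 for cholesterol efflux and -0.27 for prostaglandin and lipoxygenase genes. The pan-macrophage list had a median of -0.34 and the glycolysis list 0.17. The complement list stood at 0.08, but it holds *C1qa* and *C1qb*, which chose the cells, so its median is a description only. The Kupffer identity list had a median of 0.14, with *Cd5l* (1.06) and *Marco* of 8 genes past 2-fold higher, beside 3.68% of all genes. *Cd5l* was at 0.32 after thinning to 1000 UMIs, and in T cells the Kupffer list had a median of 1.05 with 3 of 5 genes higher. *Mrc1*, the mannose receptor, had 300 and 169 CPM (-0.81), and *Arg1* 129 and 184 CPM (0.50). Of the anti-PD-1 UMIs of *Arg1* 5 cells held 55.8%, and without the 5 richest cells of each library its ratio was -0.24.

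Monocyte genes lay on both sides, with 4 of 10 measured past 2-fold higher and 3 lower (median 0.59). Of all genes 3.68% were higher and 0.716% lower. In cells with Y-linked UMIs 6 were higher and 1 lower, with a median of 1.82, beside 4.55% and 1.37% of all genes. *Ly6c2*, the Ly6C antigen of classical monocytes, had 45.6 and 168 CPM (1.77), but T cells held 577 and 538 CPM. *Plac8* had 53.5 and 162 CPM (1.51), again below the 126 and 214 CPM of T cells. *Chil3*, a chitinase-like protein of young monocytes and of alternative activation, had 221 and 36.6 CPM (-2.44, -2.67 to -2.22), *Ccr2* 219 and 106 CPM (-1.01) and *F13a1* -1.24. *Chil3* was left out of the named genes, as its PBS level was under 0.2 of that in another cell gate. In thinned cells it was found in 6.24% and 1.27% of members and in 2.61% and 1.68% of T cells. In each library 5 members held 28.4% and 57.0% of its UMIs. Without members holding markers of another lineage, which left 33 anti-PD-1 cells, *Ly6c2* was at 0.14 and *Plac8* at 0.71. The levels of *Chil3* and *Ccr2* differed between PBS cells of either sex, which came from different animals, so that sex and animal cannot be told apart. *Chil3* had 208 CPM in PBS members with *Xist*, 26.5 CPM in PBS members with Y-linked UMIs and 47.9 CPM in anti-PD-1 members with Y-linked UMIs. *Ccr2* had 231, 93.9 and 95.8 CPM in the same 3 sets.

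The medians of the following lists kept their direction within cells with Y-linked UMIs. In the 243 anti-PD-1 over the 245 PBS cells of that kind, the interferon-gamma list had a median of 1.90 with 16 of 19 genes at least 2-fold higher beside 4.55% of all genes (1.37% lower), the type I list 1.93, the immediate early list 1.53, the chemokine list 1.51, the MHC class II list 0.32 and the lipid-associated list -0.34. The neutrophil marker list had a median of 2.51 there with 6 of 7 genes past 2-fold, against 0.99 and 3 of 7 over all members, and its part in the other values was not tested. *Gbp2* had 54.3, 31.6 and 325 CPM in PBS *Xist*, PBS Y-linked and anti-PD-1 Y-linked cells, and *Il1b* 84.3, 85.3 and 945 CPM. *Gpnmb* had 324, 536 and 132 CPM. Between the PBS cells with Y-linked UMIs and those with *Xist*, 10 genes (0.123% of 8154) were at least 2-fold higher and 37 (0.454%) lower. Cycling genes were among the latter, with a median of -0.98 and 5 of 10 lower.

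A minority of members held cycling genes. After thinning, UMIs of at least 2 of 10 cycling genes were held by 3.97% (3.20 to 4.86) of PBS and 7.85% (5.39 to 11.0) of anti-PD-1 members, by 5.84% and 7.18% of T cells and by 0.983% and 2.64% of the stricter Kupffer reference. Unthinned members stood at 15.6% and 26.0%. None of the 10 genes passed 2-fold over all members, and their median ratio was 0.39. In cells with Y-linked UMIs 6 of 10 were at least 2-fold higher with anti-PD-1, beside 4.55% of all genes, with a median of 1.00. The median ranged from 0.06 to 1.00 over all alternatives run. *Mki67*, a marker of dividing cells, was level over all members at 98.0 and 100.1 CPM.

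How many members carried a gene differed strongly among the 12 highest named genes, *Cxcl1*, *Ptgs2*, *Cxcl13*, *Prg4*, *Marco*, *Csrnp1*, *Tnfaip3*, *Cxcl2*, *Nfil3*, *Ly6a*, *Ccl8* and *Tnfsf9*. *Tnfaip3*, which encodes the NF-kB inhibitor A20, had 56.9 and 548 CPM (3.16) and was found in 29.9% of PBS and 85.4% of anti-PD-1 members. *Csrnp1*, a nuclear protein of the immediate response, had 16.8 and 195 CPM (3.20) and was found in 11.2% and 65.7%. *Nfil3*, a bZIP transcription factor, had 24.1 and 239 CPM (3.06) and was found in 14.9% and 64.4%, and *Ly6a* (Sca-1), an interferon-induced surface protein, had 99.7 and 847 CPM (3.02) and was found in 27.6% and 80.3%. T cells held 157 and 695 CPM of *Tnfaip3*, 32.6 and 137 CPM of *Csrnp1*, 23.5 and 171 CPM of *Nfil3* and 428 and 553 CPM of *Ly6a*. All 4 were thus higher in T cells of the anti-PD-1 library as well.

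A few cells held other leading genes. *Cxcl13*, the B cell chemokine, had 6.33 and 165 CPM (3.91), but only 20 of the 396 anti-PD-1 members held it, and 5 cells held 88.0% of its UMIs. Without the 5 richest cells of each library its ratio was 1.83. *Prg4*, lubricin, had 3.02 and 92.7 CPM (3.61), was found in 14 cells with 97.4% of UMIs in 5, and had a ratio of 0.43 without them. *Marco*, a scavenger receptor, had 6.83 and 112 CPM (3.31), with 70.9% of UMIs in 5 cells and a ratio of 1.88 without them. The stricter Kupffer reference held 1659 and 1473 CPM of *Marco*, and the part of its free RNA in the members' value was not tested. *Ccl8* had 60.7 and 507 CPM (2.96), with 59.3% in 5 cells and 2.24 without them. *Cxcl1* kept 4.50 and *Ptgs2* 4.16 without the 5 richest cells. Among the lower genes *Lyz1*, a lysozyme, had 54.1% of its PBS UMIs in 5 cells and a ratio of -0.82 without them against -1.17 with them. It was at 0.86 after thinning to 1000 UMIs and at 0.20 with up to 2 *Clec4f* UMIs and without other lineages, so its place among the lowest did not hold.

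**Figure D5:**
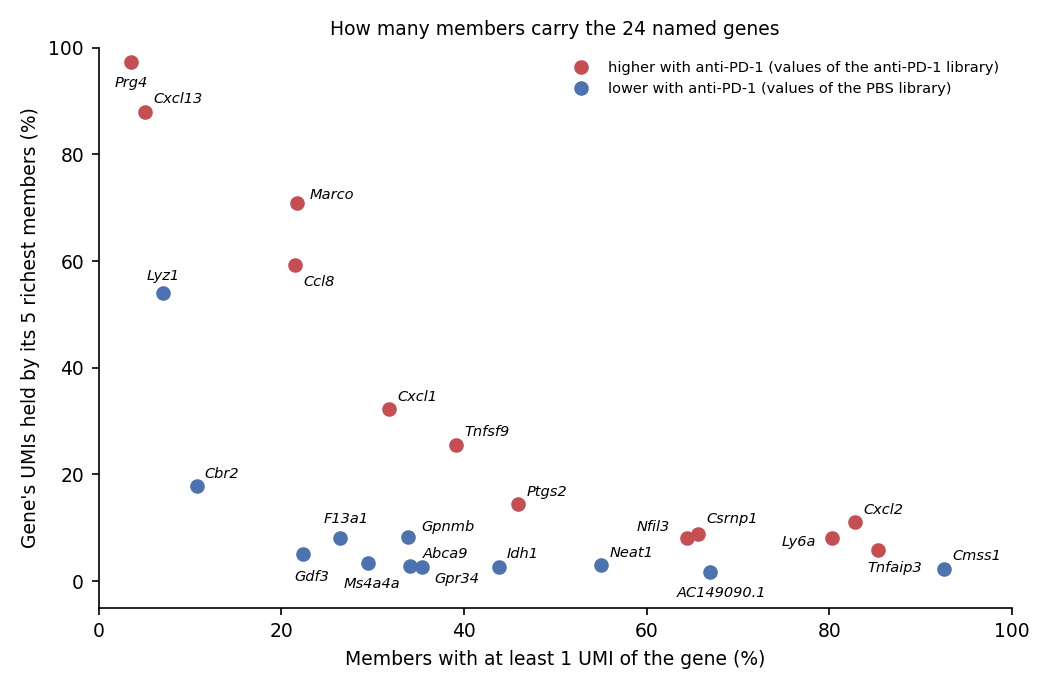
Each point is 1 of the 24 named genes, placed by the share of members with at least 1 UMI of it and by the share of its UMIs held by the 5 members richest in it, in the library where the gene was higher. Prg4 (97.4%), Cxcl13 (88.0%), Marco (70.9%) and Ccl8 (59.3%) rest on few cells, while Tnfaip3, Cxcl2, Ly6a, Csrnp1 and Nfil3 were found in more than 60% of anti-PD-1 members.

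Some of those cells shared a set of genes. UMIs of at least 3 of 7 genes known from macrophages of the peritoneal cavity (*Prg4*, *Alox15*, *Serpinb2*, *Garnl3*, *F5*, *Gata6* and *Selp*), a set put together after the values were seen, were held by 3 PBS members and 6 anti-PD-1 members (1.52%). The 6 anti-PD-1 cells held 15642 CPM of the acute phase gene *Saa3*, 10511 CPM of *Slpi*, 4052 CPM of *Cxcl1*, 2065 CPM of *Cxcl13* and 1145 CPM of *Marco*. The 3 PBS cells held 7815, 393, 0, 147 and 49.2 CPM of these. The 6 cells held 52.6 CPM of *Ms4a7*, 0 of *Fcrls* and 408 CPM of *H2-Aa*, against 1165, 238 and 7003 CPM in the 322 anti-PD-1 members with none of the 7 genes. Without such cells 286 genes were higher and 65 lower with anti-PD-1.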

How the data were processed

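Single cells of CCA livers were captured with a GEXSCOPE V2 kit, 1 library per group. The authors aligned reads to mm10, and the deposited matrices hold raw UMI counts per gene and barcode. Their Seurat 4.3 normalization and integration were not repeated, and how reads shared by paralogs or by overlapping genes were counted is not given in the sources used here. The cell filter asked for 500 to 5000 genes with a UMI and a mitochondrial share of 10% or less, which left 15531 PBS and 16360 anti-PD-1 cells. The automatic doublet threshold of scanpy 1.11.5 marked 0 cells, so cells were kept and the 5% of highest scores were left out as an alternative only.

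Counts of the gated cells were summed per library and divided by their total (CPM), with exact Poisson intervals. Differences are log2 ratios of CPM + 5 over genes with a mean CPM of at least 10, and a ratio of at least 2-fold counted as higher or lower. Shares have exact Clopper-Pearson intervals. Intervals and floors cover counting error only, and members of 1 library are not replicates. The scripts were tested on simulated counts. Tools were Python 3.11.15, numpy 2.4.6, pandas 2.3.3, scipy 1.17.1 and matplotlib 3.10.9.

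The members and gene lists were chosen with earlier results of these data known. Named genes were those with the 12 highest and 12 lowest ratios between treatments (8 and 8 for the other comparisons). They came from genes of at least 20 CPM past 2-fold. Sex-linked, mitochondrial, ribosomal and antigen receptor genes were left out, as were symbols of Gm with a digit or ending in Rik. Other clone names such as AC149090.1 were kept. Genes under 0.2 of their highest level in 7 other cell gates, taken as free RNA, were also left out. The free RNA rule left out 36 of 272 candidates, Il1b, Chil3, Gas6 and Sparc among them. Genes of the lists were named with their list, also where this rule left them out. T cells served as the reference for free RNA. The 7 other gates, T cells included, took only cells with fewer than 3 UMIs of C1qa and C1qb, and so with little macrophage RNA. T cells were also shallower, with a median of 2916 and 3695 UMIs against 8244 and 8659.5 in members. Their CPM is therefore not a direct measure of the free RNA in members. Alternatives were other cell filters, marker numbers, thinning, scaling, pseudocount and level limits, and leaving out doublets, members with 2 markers of another lineage and cells without Y-linked UMIs. Those with up to 2 Clec4f UMIs, thinning to 3000 UMIs, without shared barcodes, without cells of peritoneal genes, and with a Kupffer gate of 10 Clec4f UMIs were chosen after seeing the data. Single values of a few list genes are not reported here.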

Additional observations from a re-analysis of the deposited data

How the results depend on the processing

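The share of members was lower with anti-PD-1 under every alternative run. The share of members among kept cells differed by -12.06 percentage points and the share of members among C1q-high macrophages by -36.77. With at least 200 genes and no upper limit on genes the differences were -11.31 and -35.03. They were -13.18 and -39.86 with at least 2 markers, and -10.22 and -31.39 with at least 4 markers. After thinning to 1000 UMIs they were -5.75 and -17.87. Without members holding markers of another lineage they were -4.71 and -49.51. The value of -49.51 is larger in size than the 45.9% that all PBS members made up of the C1q-high cells. It therefore rests on a different set of C1q-high cells than -36.77 does. The 2 values cannot be compared in size, and no stronger difference was read from -49.51. Thinning to 3000 UMIs, chosen after seeing the data, left 2097 and 490 members and gave -19.97 of the kept cells that were deep enough. Cells shallower than the thinned depth were left out of the shares after thinning. Those values thus rest on fewer cells than -12.06 does and cannot be set against it in size.

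Genes higher with anti-PD-1 numbered 298, and 500 without members holding markers of another lineage, which left 763 PBS and 33 anti-PD-1 cells. Genes lower numbered 58. They were 128 with at least 200 genes and no upper limit, 937 without other lineages, 122 with a pseudocount of 1, 36 with median-of-ratios scaling, 88 with a limit of 1 CPM and 109 in cells with Y-linked UMIs. The scaling moved the median of all genes from -0.16 to 0.00. Against the Kupffer gate of 10 Clec4f UMIs, 270 genes in place of 35 were higher and 369 in place of 218 lower.

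Of 25 list medians, 23 kept their sign in all 16 alternatives, and glycolysis and iron handling, both near 0, did not. The interferon-gamma median of 1.42 was 1.05 without other lineages, 1.59 with the other scaling and 1.90 in Y-linked cells. For inflammatory cytokines (1.80) the values were 1.48, 1.97 and 1.47, with 1.95 after thinning to 1000 UMIs and 2.01 with a pseudocount of 1. For immediate early genes (1.47) they were 1.74, 1.66 and 1.53, with 1.56 for the mean of the cells' own CPM, 1.41 with up to 2 Clec4f UMIs and 1.40 after thinning to 3000. For MHC class II (0.39) they were 0.17, 0.57 and 0.32, with 0.46 for at least 200 genes and no upper limit, 0.29 for at least 2 markers, 0.32 and 0.31 after thinning to 1000 and 3000, 0.31 with up to 2 Clec4f UMIs and 0.41 without cells of peritoneal genes. The lipid-associated median of -0.37 was -0.21 and -0.49 with at least 2 and 4 markers, -0.12 and -0.049 after thinning to 1000 and 3000, -0.073 with up to 2 Clec4f UMIs and -0.19 with the other scaling. The microglia-like median of -0.49 was -0.31 after thinning to 1000, -0.31 without other lineages, -0.32 with the other scaling and -0.071 with a limit of 1 CPM.

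Of 100 genes past 2-fold, 91 kept their direction and 34 fell under 2-fold in at least 1 alternative, 22 of them without other lineages, 13 after thinning to 1000 UMIs, 12 after thinning to 3000, 9 with up to 2 Clec4f UMIs and 8 in Y-linked cells. Without other lineages Ccl24 was at -1.37, Cxcl9 at -0.57, Il12b at -0.055, Lyz1 at 0.20, Prg4 at -1.30 and Serpinb2 at -0.35. In Y-linked cells Ccr2 was at 0.028 and Chil3 at 0.75. Lyz1 was at 0.86 after thinning to 1000 and at 0.20 with up to 2 Clec4f UMIs, Prg4 at -1.32 after thinning to 3000 and Sparc at 0.30 with at least 2 markers. The cause was not tested. No paired analysis was possible because each group was 1 library.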
